A study of Homo sapiens with 20 samples.

Results

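The regions described here are stretches of the genome of wild-type (WT) HCT116 cells, an established human colorectal carcinoma line, sorted by which of 3 histone marks was called in them. Peaks of 5 WT libraries on chromosomes 1 to 22 were taken: 1 library of H3K4me1, 2 of H3K4me3 and 2 of H3K27ac. Their 496584 peaks, out of 993002 in all 18 peak lists of the series, were merged wherever they overlapped by at least 1 bp, which gave 214667 regions over 320 Mb. A mark counted as present in a region when every WT library of that mark had a peak there. By this rule 152334 regions, over 294 Mb, carried at least 1 mark and fell into 7 combinations. The other 62333 regions had peaks of H3K4me3 or H3K27ac, each mark in at most 1 of its 2 libraries. Of these regions, 84.7% held a peak of H3K27ac replicate 2, some with an H3K4me3 peak as well.

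The series set MLL4 knockout (KO) cells beside WT cells, both HCT116 with no treatment named, for these marks and for the proteins MLL4, MLL1 and p53. MLL4, encoded by KMT2D, and MLL1, encoded by KMT2A, are H3K4 methyltransferases, and p53 is a transcription factor. The labels give neither how the knockout was made nor whether it is 1 clone, and do not say that the replicates are separate cultures. All 7 combinations come from the same 5 WT libraries, so they were compared as shares of regions, with 95% Wilson intervals for counting error and no test. Neighbouring regions are not independent, and read depth is not given in the sources used here.

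Histone H3 is methylated on lysine 4 and acetylated on lysine 27 in nucleosomes of regulatory DNA. Trimethylation (H3K4me3) is known for the nucleosomes around active or poised transcription starts, monomethylation (H3K4me1) for enhancers and for the outer flanks of promoters, and H3K27ac for active enhancers and promoters alike. In textbook usage H3K4me1 without H3K27ac is called a primed enhancer, and H3K4me1 with H3K27ac but no H3K4me3 an active one.

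The bases before the start of 5 genes of the colon are shown as single examples for 4 of the combinations and for a start with no region. CDX2 and ISX have fewer CpG than most promoters of their groups. CDX2, a homeobox factor of intestinal identity, lay in a region of all 3 marks (chr13:27969316-27969435, minus strand). ISX, an intestinal homeobox factor of vitamin A uptake, had H3K4me1 and H3K27ac (chr22:35066038-35066157, plus strand). LEF1, a DNA-binding partner of beta-catenin, had H3K27ac alone (chr4:108166302-108166421, minus strand). KRT20, a keratin of mature colonocytes, had H3K4me1 alone (chr17:40885243-40885362, minus strand). OLFM4, a secreted glycoprotein of crypt base cells, had no region (chr13:53028693-53028812, plus strand). Each is the 120 bases upstream of the start, from RefSeq on GRCh38.p14, read 5′ to 3′ on the gene's strand, with CpG dinucleotides in capitals.
CDX2: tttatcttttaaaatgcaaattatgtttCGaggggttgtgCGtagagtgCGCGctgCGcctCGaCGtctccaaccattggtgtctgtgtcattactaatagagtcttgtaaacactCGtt
ISX: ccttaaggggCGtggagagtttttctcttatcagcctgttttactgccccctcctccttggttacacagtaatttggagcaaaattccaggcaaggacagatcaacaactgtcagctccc
LEF1: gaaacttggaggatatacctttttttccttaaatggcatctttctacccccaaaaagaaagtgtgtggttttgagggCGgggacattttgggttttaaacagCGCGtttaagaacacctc
KRT20: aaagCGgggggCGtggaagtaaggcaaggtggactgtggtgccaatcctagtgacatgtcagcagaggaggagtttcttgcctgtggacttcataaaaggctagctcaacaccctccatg
OLFM4: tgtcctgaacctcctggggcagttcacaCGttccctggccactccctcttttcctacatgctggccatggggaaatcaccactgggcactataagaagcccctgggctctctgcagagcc
The CDX2 stretch holds 8 CpG, and those of ISX, LEF1, KRT20 and OLFM4 hold 1, 3, 2 and 1.

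The WT replicates disagreed at a small share of strong loci, and this bears on the combinations given to those loci. Of 13676 regions with at least 10-fold H3K4me3 enrichment in WT replicate 1, 367 (2.68%) had no H3K4me3 peak in replicate 2. Of 13347 such regions of replicate 2, 392 (2.94%) had none in replicate 1. The regions strong in replicate 1 only had H3K4me3 in both KO libraries in 337 cases (91.8%), while those strong in replicate 2 only had it there in 11 cases (2.81%). At the 12632 regions strong in both, the KO libraries had H3K4me3 at 99.6% and 99.5%. The strong regions of WT replicate 2 that replicate 1 lacked were thus mostly absent from the KO libraries too.

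H3K27ac was mostly called in both replicates at these regions, at 302 of the 367 and 201 of the 392. Where it was called in 1 replicate only, this was mostly the replicate with the strong H3K4me3. Where H3K4me3 was strong in replicate 2 only, H3K27ac was called in replicate 2 and not in replicate 1 at 152 regions and in the reverse way at 3. Where it was strong in replicate 1 only, the counts were 42 in replicate 1 alone and 3 in replicate 2 alone. Regions of at least 10-fold H3K27ac in 1 replicate and none in the other numbered 204 for replicate 1 and 266 for replicate 2. These were 1.34% and 1.47% of the strong regions of each. H3K27ac was called in both KO libraries at 68.6% of the 204 and 3.76% of the 266. The H3K27ac and H3K4me3 libraries of WT replicate 2 therefore stood apart from those of replicate 1 at shared loci.

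The other WT libraries divided as well. At the regions with strong H3K4me3 in replicate 1 only, H3K4me1 was called at 98.9% and MLL1 at 48.5%, and at those of replicate 2 only at 55.9% and 7.91%. MLL4 was called at 129 of the 367 regions of replicate 1 only and at 90 of the 392 of replicate 2 only. The p53 libraries went the other way, with peaks at 121 and 113 of the 367 and at 196 and 204 of the 392. At regions strong in both, H3K4me1 was called at 97.3%, MLL1 at 92.8%, MLL4 at 55.7% and p53 at 66.9% and 67.1%. Both sets thus had p53 at a smaller share than regions strong in both. Of the 392, 179 lay at a start, against 75 of the 367, and the sets were not matched on position. The cause was not tested, and the labels do not say whether the WT libraries share a culture.

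**Figure D1:**
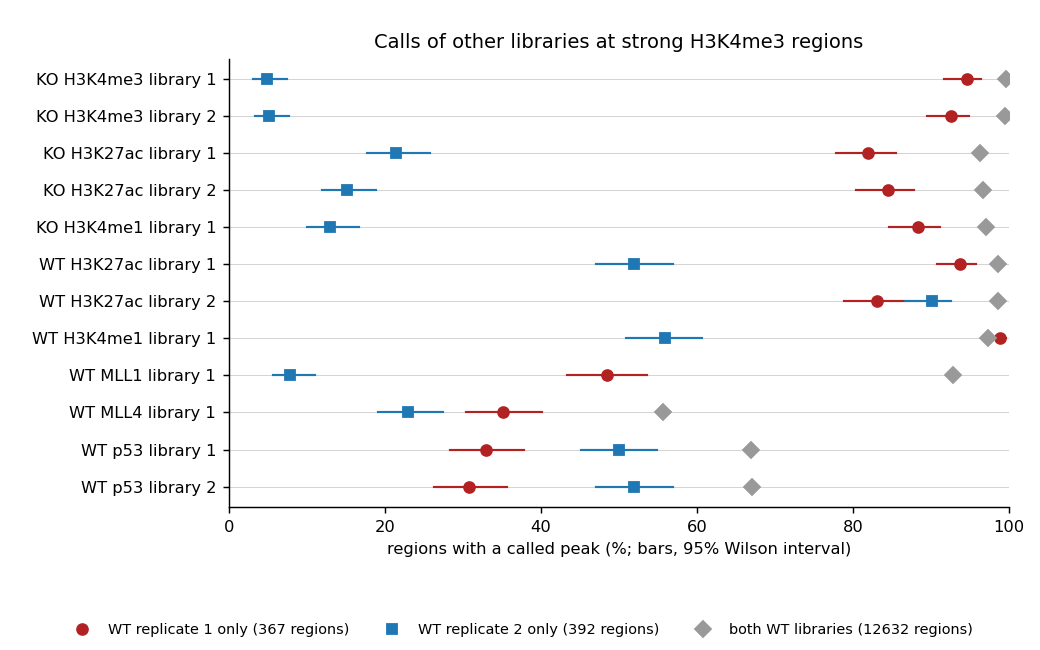
Share of strong H3K4me3 regions (at least 10-fold) with a called peak in each other library, for regions strong in WT replicate 1 and not called in WT replicate 2, the reverse, and strong in both; bars are 95% Wilson intervals. The KO H3K4me3 libraries had peaks at 94.6% and 92.6% of the regions of replicate 1 only, and at 4.85% and 5.10% of those of replicate 2 only.

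Single promoters show the size of this difference. At LPIN1, a phosphatidate phosphatase, H3K4me3 stood at 151- and 166-fold in the KO libraries, 141-fold in WT replicate 1 and was not called in WT replicate 2. At ROBO1, a receptor for SLIT proteins, it stood at 68.5- and 86.6-fold in KO and 115-fold in WT replicate 1, with none called in WT replicate 2, and H3K27ac was 12.9- and 13.6-fold in KO, 43.8-fold in WT replicate 1 and not called in WT replicate 2. ROBO1 was counted as H3K4me1 alone for this reason. At MAL2, a membrane protein of transcytosis, H3K4me3 of 196-fold and H3K27ac of 52.3-fold were called in WT replicate 2 and no mark in any other KO or WT library. The promoters of LPIN1 and ROBO1 thus had the KO pattern in WT replicate 1, and the promoter of MAL2 was marked in replicate 2 alone.

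**Figure D2:**
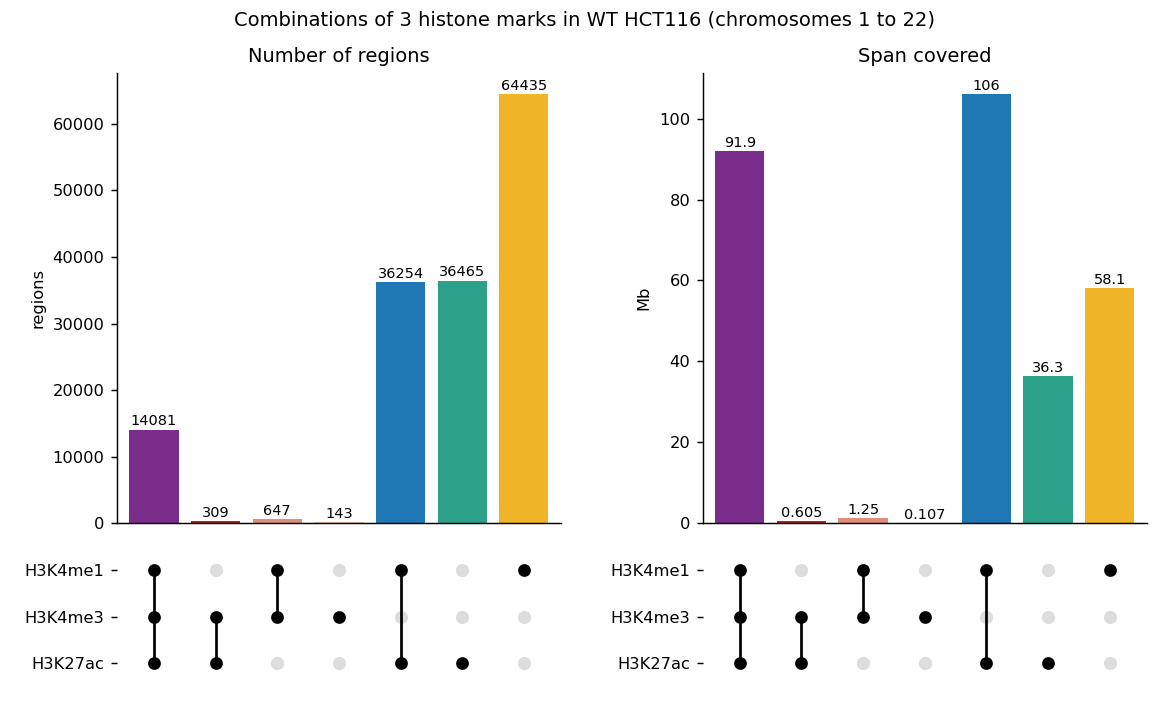
Number of regions (left) and total span in Mb (right) of the 7 combinations; filled dots below each bar name the marks. H3K4me1 alone was the most numerous at 64435 regions, while H3K4me1 with H3K27ac covered most sequence, at 106 Mb.

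H3K4me3 was almost never found without the other marks, whereas H3K4me1 and H3K27ac often stood alone. All 3 marks were called in 14081 regions, which were 9.24% of marked regions (9.10 to 9.39) but held 31.3% of their span. H3K4me1 with H3K27ac took 36254 regions (23.8%), H3K27ac alone 36465 (23.9%) and H3K4me1 alone 64435 (42.3%). The remaining combinations were rare: 647 regions of H3K4me1 with H3K4me3, 309 of H3K4me3 with H3K27ac and 143 of H3K4me3 alone. Counted by mark, 92.8% of 15180 H3K4me3 regions carried all 3 marks. Of 115417 H3K4me1 regions, 55.8% had that mark alone, and of 87109 H3K27ac regions, 41.9% did.

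The order of the 3 large groups without H3K4me3 depended on the library. From WT replicate 1 alone for H3K4me3 and H3K27ac, H3K4me1 alone made up 35.8% of marked regions and H3K27ac alone 30.9%. From replicate 2 alone H3K27ac alone was the larger, at 44.1% against 24.7% for H3K4me1 alone. The list of H3K27ac replicate 2 held 196645 peaks and that of replicate 1 held 137489. Of the 64435 regions counted as H3K4me1 alone, 46850 had no other mark in either replicate. The regions of all 3 marks numbered 16166 from replicate 1 and 15363 from replicate 2.

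Base by base the picture was narrower than region by region. Positions where the peaks of all libraries of all 3 marks lay over each other came to 15.9 Mb, or 5.98% of 266 Mb of marked sequence. H3K4me1 alone covered 127 Mb (47.9%), H3K4me1 with H3K27ac 66.1 Mb and H3K27ac alone 42.7 Mb. Regions named for all 3 marks had at least 1 bp under all 3 in 91.7% of cases (91.3 to 92.2). Within them H3K4me1 covered 85.6% of the span, H3K27ac 57.5% and H3K4me3 31.5%.

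**Figure D3:**
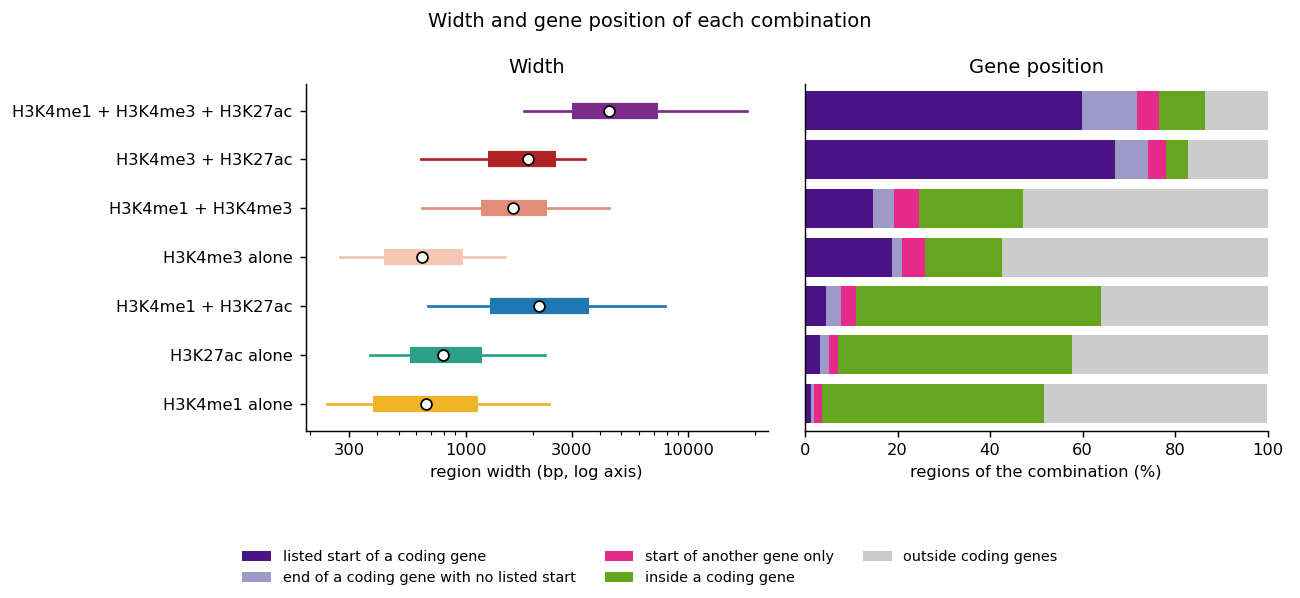
Left, width of the regions of each combination on a log axis, with the median (circle), the middle 50% (thick bar) and the 5th to 95th percentile (line); right, share of regions by gene position. Regions of all 3 marks had a median of 4418 bp and lay at a coding start or end in 71.6% of cases; those of H3K4me1 alone had a median of 662 bp and lay there in 2.02%.

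Width rose with the number of marks. The median was 4418 bp for all 3 marks, with 15.7% of regions at 10 kb or more, and 2129 bp for H3K4me1 with H3K27ac, with 2.46%. H3K27ac alone had a median of 790 bp, H3K4me1 alone 662 bp and H3K4me3 alone 635 bp. A wide region has more room to meet a peak of another mark, so width and the number of marks are not independent of the merging. The widest region of all 3 marks ran over 102555 bp of chromosome 16 at CTU2, a tRNA-modifying enzyme subunit (chr16:88683780-88786334). The next were 94845 bp at MIDN on chromosome 19 and 92889 bp at ZFPM1, a cofactor of GATA factors, on chromosome 16.

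Position separated the combinations with abundant H3K4me3 from all others. A region was taken to lie at a start if it came within 1 kb of a listed start of a protein-coding gene or, for the 4022 such genes with no listed start, of either gene end. This held for 71.6% of the regions of all 3 marks (70.9 to 72.4) and 74.1% of those of H3K4me3 with H3K27ac (69.0 to 78.7). It held for 19.3% of H3K4me1 with H3K4me3, 7.81% of H3K4me1 with H3K27ac, 5.22% of H3K27ac alone and 2.02% of H3K4me1 alone, against 8.50% of all merged regions. From a single replicate the share for all 3 marks was 64.0% (replicate 1) or 67.0% (replicate 2). Regions of H3K4me1 with H3K27ac lay inside genes in 52.9% of cases and outside in 36.1%, and those of H3K4me1 alone in 48.0% and 48.4%.

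Over all widths, enrichment of H3K4me3 differed between the combinations more than that of the other marks. Fold enrichment is the authors' ratio of ChIP over local background at a peak, and a region takes its highest peak. The median H3K4me3 fold was 95.7 and 115 (replicates 1 and 2) with all 3 marks, 84.3 and 112 with H3K27ac, 8.34 and 8.31 with H3K4me1, and 8.77 and 9.29 alone. The H3K4me3 called without H3K27ac was therefore mostly weak. Median H3K27ac fold was 28.7 and 27.1 with all 3 marks, 5.34 and 6.30 with H3K4me1, and 4.21 and 4.81 alone. H3K4me1 had 1 library, with medians of 6.52 in regions of all 3 marks, 3.97 with H3K27ac and 3.44 alone. These folds moved with width. Among regions of 1 to 2 kb, median H3K4me3 fold was 27.5 and 34.9 with all 3 marks and 68.8 and 93.4 with H3K27ac. It was 8.73 and 9.29 with H3K4me1, and 12.6 and 24.8 in the 32 regions of H3K4me3 alone. Median H3K27ac fold at this width was 10.8 and 10.3 with all 3 marks, and 20.6 and 17.7 with H3K4me3. It was 4.80 and 5.56 with H3K4me1, and 4.51 and 5.56 alone.

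Regions of all 3 marks away from coding starts carried less H3K4me3 and H3K27ac than those at starts. The 10086 at a coding start or end had median H3K4me3 folds of 117 and 139 and H3K27ac folds of 35.0 and 32.7, at a median width of 4543 bp. The 1426 inside genes had 17.1 and 13.3 for H3K4me3 and 15.3 in each library for H3K27ac, at a median width of 4829 bp. The 1897 outside coding genes had 16.9 and 13.3 for H3K4me3, at 3511 bp. H3K4me1 ran the other way, with a median fold of 7.58 inside genes, 6.98 outside and 6.27 at starts.

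**Figure D4:**
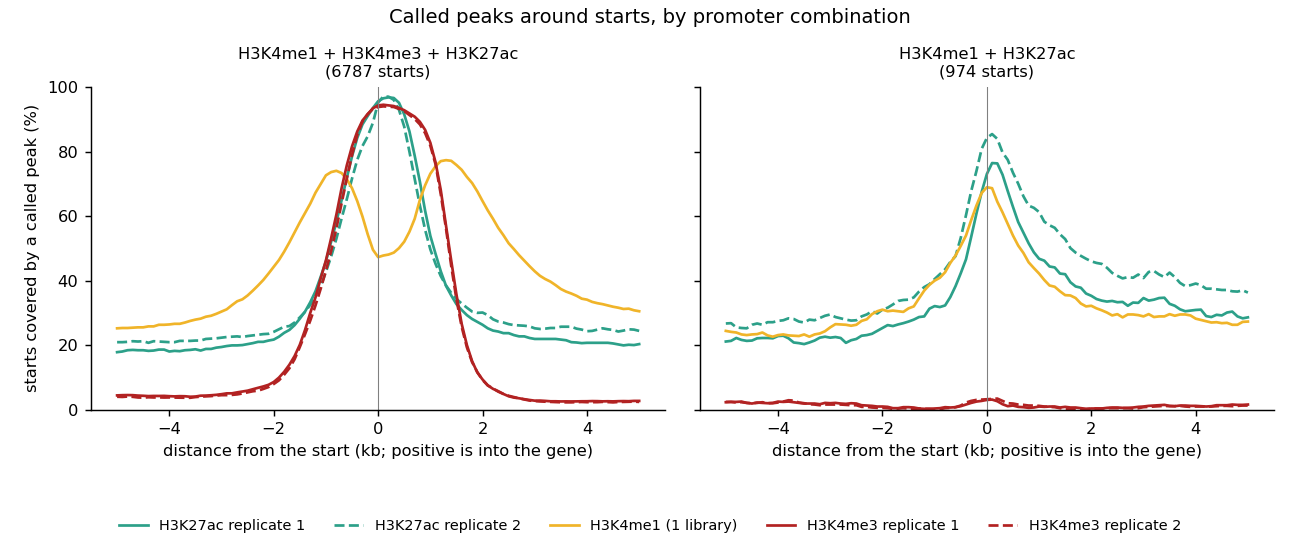
Share of starts covered by a called peak at each distance from the start, for genes with 1 listed start whose start lay in a region of all 3 marks (left) or of H3K4me1 with H3K27ac (right); lines are single libraries. At the start itself H3K4me1 covered 47.3% of the promoters on the left and 69.0% of those on the right.

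H3K4me1 at promoters of all 3 marks was called more often 1 kb to either side than at the start. Over 6787 such starts of genes with 1 listed start, H3K4me1 peaks covered 72.7% at 1 kb upstream, 47.3% at the start and 73.2% at 1 kb into the gene. H3K4me3 covered 94.4% and 93.9% at the start (replicates 1 and 2), 46.3% and 43.1% at 1 kb upstream and 82.8% and 81.9% at 1 kb into the gene. H3K27ac covered 95.7% and 95.3% at the start. In 81.6% of the regions with H3K4me3 bases shared by both libraries, H3K4me1 reached beyond H3K4me3 on both sides. H3K4me1 calls thus dipped at the start between the 2 flanks but were not absent there. Further out they were fewer than at the start, with 25.2% at 5 kb upstream and 30.5% at 5 kb into the gene. Over whole regions of all 3 marks, 71.0% of H3K4me3 bases and 82.9% of H3K27ac bases lay under H3K4me1 peaks. H3K4me3 extended further into the gene than upstream.

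Promoters of H3K4me1 with H3K27ac had no such dip. At 974 of these starts H3K4me1 covered 69.0% at the start itself and 42.2% at 1 kb into the gene. H3K27ac covered 73.1% and 84.3% at the start. H3K4me3 covered 2.98% and 3.18% there.

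The sequence before the start differed between the promoter combinations. Over the 250 bases upstream, the median number of CpG was 22 for all 3 marks, 20 for H3K4me3 with H3K27ac, 14 for H3K27ac alone, 6 for H3K4me1 with H3K27ac, 3 for H3K4me1 alone and 2 where no region was found, against 18 for all 11233 promoters of genes with 1 listed start. TATAAA, searched on both strands, was found in 4.42% of promoters of all 3 marks, 12.3% of those of H3K4me1 with H3K27ac, 19.8% of those of H3K4me1 alone and 28.6% of those with no region, against 10.2% of all. CCAAT varied less, with 35.9% at promoters of all 3 marks, 26.6% at those of H3K4me1 with H3K27ac and 35.1% of all. TATAAA and CCAAT hold no CpG, but TATAAA holds only A and T, and base composition differed as well. Median GC was highest at promoters of all 3 marks. It was 60.4% for H3K4me1 with H3K27ac, 48.4% for H3K4me1 alone and 42.4% with no region, against 62.4% for all promoters. Whether the TATAAA shares differ beyond what base composition gives was not tested. CDX2, with 10 CpG in these 250 bases, lay below the lower quartile of 16 of its group, and ISX, with 1, lay below that of its own, which was 3. SMOC2, a matrix protein of crypt base cells with no replicated mark at its start, had 24, so its CpG number lay within the middle of the group with all 3 marks.

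The regions of highest fold and the widest regions of each combination show what the labels hold at the extremes. With all 3 marks the highest H3K4me1, H3K4me3 and H3K27ac together lay at HGS, an endosomal sorting protein, at P4HB, protein disulfide isomerase, and at CCDC57, all on chromosome 17. The HGS region had 21.1-fold H3K4me1, 339- and 349-fold H3K4me3 and 200- and 159-fold H3K27ac. P4HB had 326- and 342-fold H3K4me3 and the higher H3K27ac, 297- and 202-fold.

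H3K4me3 with H3K27ac and no H3K4me1 was strongest at GABPB1, a subunit of an ETS-family factor, at WTAP, a subunit of the RNA methyltransferase complex, and at UBXN4. GABPB1 had 206- and 225-fold H3K4me3 and 101- and 118-fold H3K27ac. These 3 and the 3 widest, at CHD2, ARRDC3 and ITPRID2, were all at starts and overlapped an H3K4me1 peak in the KO library. Over the 309 regions, the KO library had H3K4me1 at 68.6% (63.2 to 73.5). The lack of H3K4me1 there thus rests on 1 WT library.

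H3K4me1 with H3K4me3 and no replicated H3K27ac was strongest at STON2, an endocytic adaptor, at SERTAD4 and at ENC1, an actin-associated protein. H3K4me3 at ENC1 was 32.8- and 94.1-fold, and at SERTAD4 33.6- and 40.7-fold. Each had H3K27ac in 1 library: 7.19-fold at STON2 in replicate 1, and 6.30-fold at SERTAD4 and 8.55-fold at ENC1 in replicate 2. The widest were near QPCT, near BTN3A2 and at BCL11A, a zinc finger repressor, and these too had a peak in 1 H3K27ac library. H3K4me3 alone was strongest at PRR23D2, TTC5 and near POTEH. Of these, PRR23D2 and the region near POTEH belong to families of near-identical copies, where reads may be shared, and both had H3K27ac in replicate 1 only, of 18- and 13.1-fold. TTC5, a cofactor of p300, had 45.0- and 81.0-fold H3K4me3 and no peak of the other marks in any WT library. The widest lay at ZNF44, a zinc finger gene, in a gene-free part of chromosome 9 and at CLCN3, a chloride-proton exchanger. At ZNF44 H3K4me3 was 14.2- and 171-fold and H3K27ac was called in replicate 2 only, at 25-fold.

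The strongest H3K4me1 with H3K27ac lay near FCGR2A, at RHPN1 and inside RABEP2. The RABEP2 region had 15.6-fold H3K4me1 and 34.4- and 23.9-fold H3K27ac, with no H3K4me3 in either WT library, while the other pair had an H3K4me3 peak in WT replicate 1 only, of 8.07-fold near FCGR2A and 16.3-fold at RHPN1. The widest were a 43842 bp stretch of chromosome 8 with no coding gene within 100 kb, 36199 bp at NOTCH1 and 35661 bp at TNS3, a focal adhesion protein. H3K27ac alone was strongest in a region of chromosome 1 with no gene near it, inside COL23A1, a transmembrane collagen, and in another gene-free region of chromosome 4. The COL23A1 region had 23.3- and 20.5-fold H3K27ac. The widest lay in gene-free parts of chromosomes 8 and 4 and at NFATC1.

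Wide regions of H3K4me1 alone were not always free of H3K27ac. A region of 18244 bp in a gene-free part of chromosome 1 and one of 17958 bp on the same chromosome, 45885 bp from ZC3H11B, had 23.9- and 25.1-fold H3K27ac in WT replicate 1 and none called in WT replicate 2. Both had H3K27ac in both KO libraries. Among the highest H3K4me1 folds, the region near POTEG had 34.4-fold H3K4me3 in replicate 1 only, whereas those near DGCR6 and inside ATP9B, of 17.6- and 16.2-fold H3K4me1, had no H3K4me3 in any WT library and at most 3.87-fold H3K27ac.

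Long genes gathered most regions of the distal kinds. Regions were assigned to the nearest protein-coding gene up to 100 kb away. CAMTA1, a transcription activator gene of 984 kb, had 60 regions of H3K4me1 with H3K27ac, 84 of H3K27ac alone and 49 of H3K4me1 alone. GSE1 had 56, 10 and 2, and IQSEC1 54, 31 and 10. PTPRN2, a receptor-type phosphatase of secretory granules, had 99 of H3K27ac alone and 24 of H3K4me1 alone, with SHANK2, SORCS2 and TRAPPC9 next at 87, 78 and 66 of H3K27ac alone. TNIK, a kinase of Wnt signalling, had 52 of H3K4me1 alone, 10 of H3K4me1 with H3K27ac and 0 of H3K27ac alone. NAV2, AGAP1 and PARD3, a polarity protein, had 51, 50 and 50 of H3K4me1 alone. Genes of like length thus held quite different mixtures. Regions of all 3 marks were most numerous at PRKAG2 (9), at GNG7 and GSE1 (8 each) and at CAMTA1 and HIVEP3 (7 each). In the rare combinations no gene had more than 3: 3 regions of H3K4me1 with H3K4me3 each lay at CD8B2, IGSF11, SYNE2, TSC22D2 and ZNF184, 2 of H3K4me3 with H3K27ac at NBPF15, RABGAP1L and SRGAP2C, and 2 of H3K4me3 alone at CPZ. The share of marked regions with H3K4me1 alone also varied by chromosome, at 20.0% on chromosome 19 and 55.9% on chromosome 13.

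**Figure D5:**
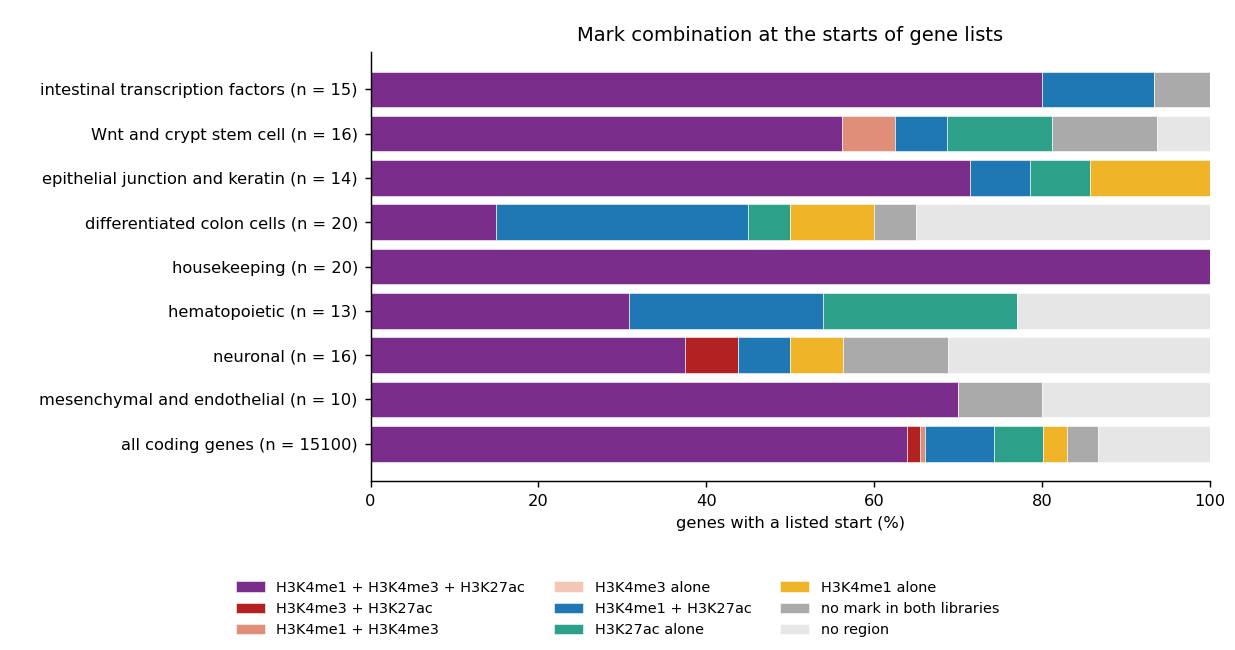
Combination at the start for genes of 4 colon lists, a housekeeping list and 3 lists of other tissues, and for all protein-coding genes with a listed start; n is the number of genes with a listed start. All 3 marks were at 80.0% of the intestinal transcription factors, 15.0% of the genes of differentiated colon cells and 63.9% of all genes.

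Among the colon lists, that of differentiated cells had the fewest starts with all 3 marks. The lists and their members were chosen with earlier results of these data known. A gene takes the region with most marks that overlaps 1 kb on either side of a listed start, and 15100 of 19122 protein-coding genes have one. Starts on chromosome 8 were not used here, so genes of that chromosome are in none of the counts at listed starts. All 3 marks were at the start of 12 of 15 intestinal transcription factors, 9 of 16 Wnt and crypt stem cell genes, 10 of 14 epithelial junction, keratin and adhesion genes and 3 of 20 genes of differentiated colonocytes, goblet and enteroendocrine cells, against 63.9% of all 15100 genes. No region was found at 7 of the 20 differentiated genes, against 13.4% of all genes. H3K4me1 with H3K27ac was at 6 of the 20, against 8.22% of all. Among all genes the other classes were smaller, with 5.81% for H3K27ac alone, 2.89% for H3K4me1 alone, 1.52% for H3K4me3 with H3K27ac, 0.556% for H3K4me1 with H3K4me3, 0.0861% for H3K4me3 alone and 3.64% with no mark in both libraries. H3K4me3 in any combination was at 66.1% of all genes. Housekeeping genes had all 3 marks at 20 of 20 starts. Each colon list has 25 genes, of which those without a listed start were read at either gene end and not counted. Counts this small carry wide error. At either end of every gene, those of chromosome 8 included, all 3 marks were at 68.0% of the 25 intestinal transcription factors. This was near the 62.2% of all 19122 genes.

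Values of single genes are given here as fold at the highest peak within 1 kb of the start. Where a peak was called, the intestinal transcription factors had median H3K4me3 folds of 117 and 132, against 119 and 142 for all genes, and median H3K27ac folds of 22.9 and 20.5, against 30.4 and 26.5. CDX2 had 4.12-fold H3K4me1, 174- and 179-fold H3K4me3 and 49.9- and 31.6-fold H3K27ac. KLF5, a zinc finger factor of crypt cells, had 124- and 143-fold H3K4me3 and 42.4- and 47.8-fold H3K27ac. TCF7L2, the main DNA-binding partner of beta-catenin in the colon, had 145- and 199-fold H3K4me3 and 69.9- and 82.5-fold H3K27ac. The replicates gave close values at these 3 genes. The others with all 3 marks were GATA6, KLF4, ELF3, ATOH1, FOXA1, FOXA3, PPARG, ONECUT2 and NR5A2. NR5A2, a nuclear receptor of crypts, differed between replicates, with 134- and 23.7-fold H3K4me3 and 76.2- and 7.61-fold H3K27ac. ATOH1, the factor that commits cells to the secretory lineage, had 29.9- and 29.4-fold H3K4me3 with 4.80-fold H3K27ac in replicate 1 and none within 1 kb in replicate 2.

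HNF4A and ISX carried H3K4me1 with H3K27ac at the start and no H3K4me3. HNF4A, a nuclear receptor of the enterocyte programme, had 3.75-fold H3K4me1 and 4.51- and 6.69-fold H3K27ac, and ISX 7.02-fold and 7.49- and 7.59-fold. EHF, an ETS factor of epithelia, had only a 3.69-fold H3K27ac peak in replicate 2. Among members with no listed start, read at either gene end, HNF4G, SOX9, VDR and GRHL2 lay in regions of all 3 marks, CDX1 and GATA4 in regions of H3K4me1 with H3K27ac, and FOXA2 in a region with no replicated mark. GRHL2, an epithelial factor, had 40.2- and 162-fold H3K4me3 and 15.6- and 118-fold H3K27ac, so replicate 2 was the higher in both marks.

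The Wnt and crypt stem cell genes were mixed, with a share of all 3 marks (56.2%) near that of all genes (63.9%). AXIN2, a scaffold of the destruction complex, had 187- and 207-fold H3K4me3 and 46.1- and 85.2-fold H3K27ac at a gene end. CD44, an adhesion receptor, had 138- and 173-fold and 56.8- and 50.1-fold, and SOX4 112- and 140-fold and 42.7- and 37.7-fold. EPHB2, EPHB3, SP5, TCF7, TNFRSF19, DKK1 and LGR4 also had all 3 marks at a listed start, and ASCL2, ZNRF3, NKD1, NOTUM, MYC, CCND1 and MSI1 at a gene end. LGR5, the receptor that marks crypt base stem cells, had 7.88-fold H3K4me1 and 14.5- and 25.6-fold H3K4me3 with no H3K27ac peak in either replicate. OLFM4 had no peak, SMOC2 and APCDD1 only H3K27ac of replicate 2, of 4.43- and 4.06-fold, and LEF1 and PROM1 H3K27ac without H3K4me3.

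RNF43, a ubiquitin ligase that removes Wnt receptors, was counted as H3K4me1 with H3K4me3, on values that disagree. H3K4me3 was 6.51-fold in replicate 1 and 73.1-fold in replicate 2, and H3K27ac was called in replicate 2 only, at 10.8-fold. LRIG1, a growth factor receptor inhibitor of stem cells, had 18.6-fold H3K4me3 in replicate 2 only, and H3K27ac of 4.21- and 6.30-fold. With replicate 2 alone, 11 of 16 genes of this list had all 3 marks, and with replicate 1 alone 9 of 16.

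Of the epithelial genes, 71.4% had all 3 marks, near the 63.9% of all genes. CLDN7, a claudin of the basolateral membrane, lay in a region of 53308 bp with 162- and 221-fold H3K4me3 and 72.2- and 76.8-fold H3K27ac. DSP, desmoplakin, had 160- and 174-fold and 44.8- and 30.2-fold. CLDN1, CLDN3, CLDN4, OCLN, TJP1, KRT8, ITGA6 and LAMB3 completed the 10, and EPCAM, CDH1, KRT18, KRT19, PKP3, ST14, ITGB4 and ESRP1 had all 3 marks at a gene end. CLDN1 was weak, with 5.52- and 12.2-fold H3K4me3. LAMB3, a laminin chain, had 9.94- and 37.3-fold H3K4me3 and 5.41- and 21.5-fold H3K27ac, again higher in replicate 2. EPCAM and CDH1, which define epithelia, had 184- and 202-fold and 94.0- and 196-fold H3K4me3. PTPRC, which defines blood cells, had no region at its start, but only 3 of 13 hematopoietic genes with a listed start had none. All 3 marks were at 4 of the 13, and an H3K27ac peak lay within 1 kb of 10 in each replicate.

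The members of that list that mark mature colon cells were the exceptions. KRT20 had 4.49-fold H3K4me1 and a 3.13-fold H3K27ac peak in replicate 2 only. CEACAM6, an adhesion glycoprotein, had 3.97-fold H3K4me1 and likewise 3.13-fold H3K27ac in replicate 2. CEACAM5 had 6.22-fold H3K4me1 and 7.79- and 5.74-fold H3K27ac. LGALS4, galectin 4, had H3K27ac of 4.87- and 8.55-fold. None of these had an H3K4me3 peak in any WT library, and the same held for VIL1, villin, and CDH17, a cadherin of the intestine, at their gene ends.

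In the list of differentiated cells, mucin and absorptive genes mostly had H3K4me1 with H3K27ac or no region. MUC2, the main mucin of goblet cells, lay in a region of 20232 bp with 6.48-fold H3K4me1, 9.29- and 16.2-fold H3K27ac and no H3K4me3. GUCA2A, which encodes guanylin, had 7.89-fold H3K4me1 and 7.62- and 9.12-fold H3K27ac. FCGBP, SPINK4, GUCA2B and ALPI had the same combination, as did TFF3 and CA4 at a gene end. The starts of MUC13, CLCA1, REG4, SLC26A3, FABP2, SI and INSL5 overlapped no peak of the 5 lists, and CA1 had none at either end. AQP8 had H3K27ac alone, FABP1 and CHGA H3K4me1 alone, as did CHGB at a gene end, and NEUROD1 a peak of H3K27ac in replicate 1 only. The distal combination without H3K4me3 was thus at the start of several goblet and colonocyte genes.

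The genes of this list with all 3 marks were SLC26A2, PYY and MUC12, and CA2 at a gene end. SLC26A2, a sulfate transporter, had 127- and 131-fold H3K4me3 and 21.2- and 16.8-fold H3K27ac. PYY, a hormone of enteroendocrine cells, had 143- and 140-fold and 46.6- and 29.3-fold in a region of 15770 bp. MUC12 had no H3K4me3 peak within 1 kb of its start and took the name from the rest of its region. Counted from peaks within 1 kb of the start itself, all 3 marks were at 2 of 20 genes of this list, 10 of 15 intestinal factors and 59.4% of all genes.

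Regions without H3K4me3, those at starts included, were also assigned to these genes. Of the 25 intestinal transcription factors, 21 (84.0%) had at least 1 region of H3K4me1 with H3K27ac, as did 19 Wnt and crypt genes, 21 epithelial genes and 16 genes of differentiated cells (64.0%), against 50.6% of all 19122 genes. At least 1 region of H3K27ac alone was assigned to 19, 19, 16 and 15 genes of the 4 lists in that order, against 50.9% of all genes, and of H3K4me1 alone to 20, 23, 20 and 17, against 64.6%. In the lists of other tissues, H3K4me1 with H3K27ac was assigned to 68.0% of mesenchymal and endothelial genes, 56.5% of hematopoietic and 41.7% of neuronal ones. For H3K27ac alone these shares were 60.0%, 52.2% and 45.8%, and for H3K4me1 alone 80.0%, 60.9% and 70.8%. An excess over all genes was thus not particular to the colon lists. The lists were not matched on gene length or on the space around genes. EPHB2, a receptor of the crypt axis, had 38 regions of H3K4me1 with H3K27ac, 26 of H3K27ac alone and 6 of H3K4me1 alone. NR5A2 had 3, 1 and 32, and TCF7L2 11, 11 and 26. EPHB2 and NR5A2, of 211 and 150 kb, thus differed in the mixture of regions assigned to them.

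The lists of other tissues were not empty of marks. All 3 marks were at 4 of 13 hematopoietic starts, 6 of 16 neuronal and 7 of 10 mesenchymal and endothelial ones, against 63.9% of all genes, and at 23.1%, 31.2% and 20.0% no region was found. TUBB3, a tubulin found in many tumour lines, had 241- and 235-fold H3K4me3, VIM, vimentin, 39.6- and 13.1-fold, and ZEB1, a repressor of epithelial genes, 125- and 149-fold. CD79A and CD68 had no H3K4me3 peak within 1 kb of their starts and lay in wide regions of 22710 and 36959 bp. Among housekeeping genes UBB, a polyubiquitin gene, differed between the WT replicates. It had H3K4me3 of 10.6- and 36.8-fold in the KO libraries, against 3.64- and 103-fold in WT replicates 1 and 2, and H3K27ac of 9.25- and 10.3-fold in KO against 6.46- and 56.1-fold in WT.

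Regions with H3K4me3 and H3K27ac held an MLL1 peak most often, and regions of all 3 marks an MLL4 or p53 peak. Of the MLL4 peaks themselves, 26.5% lay in regions of all 3 marks and 43.3% outside all merged regions, whereas 59.5% and 17.2% of MLL1 peaks did. These lists were not used to form the combinations. MLL1 lay in 88.1% of regions of all 3 marks (87.5 to 88.6), 84.8% of H3K4me3 with H3K27ac, 38.3% of H3K4me1 with H3K4me3, 25.9% of H3K4me3 alone, 10.9% of H3K4me1 with H3K27ac 2.31% of H3K27ac alone and 2.59% of H3K4me1 alone. MLL4 lay in 53.4%, 21.7%, 18.7%, 9.53% and 2.40% of all 3 marks, H3K4me3 with H3K27ac, H3K4me1 with H3K27ac, H3K27ac alone and H3K4me1 alone. For p53, called in both of its WT libraries, the shares were 56.9%, 29.1%, 11.2%, 11.5% and 0.535% in the same order. Regions with a peak per Mb ranked otherwise, in the same order at 81.8, 111, 63.9, 95.6 and 26.7 for MLL4. For p53 they came to 87.2, 149, 38.3, 115 and 5.94. For MLL1 they came to 135 with all 3 marks, below 433 for H3K4me3 with H3K27ac. H3K4me3 alone had 345 for MLL1 and H3K4me1 with H3K4me3 had 198, and the combinations without H3K4me3 had at most 37.5.

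Equal width changed part of the order of the shares. Among regions of 1 to 2 kb, MLL4 was at 22.2% of those of all 3 marks (19.6 to 25.1), 13.1% of H3K27ac alone (12.5 to 13.8), 9.65% of H3K4me1 with H3K27ac (9.12 to 10.2) and 3.41% of H3K4me1 alone. For p53 the shares were 33.7%, 14.4%, 6.93% and 0.838%. H3K4me3 with H3K27ac, with 109 regions of this width, had MLL4 at 15.6% and p53 at 18.3%. MLL1 was at 85.3% of these 109 (77.5 to 90.8), above the 70.4% of all 3 marks (67.3 to 73.3). By these shares H3K27ac alone met MLL4 and p53 more often at this width than H3K4me1 with H3K27ac did. Regions of this width with no mark in both libraries had MLL4 at 9.13% and p53 at 12.4%. All these shares come from the same libraries, and the difference was not tested. The MLL4 list is weak, with a median fold of 4.17, and when only peaks with a −log10 q-value of 5 or more were kept its shares over all widths were 18.9% for all 3 marks, 3.86% for H3K4me1 with H3K27ac and 1.75% for H3K27ac alone.

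In the KO libraries regions with H3K4me3 and H3K27ac mostly had their calls, and regions without H3K4me3 mostly did not. In KO, H3K4me1 was called at 96.3% of the regions of all 3 marks in WT, H3K4me3 in both libraries at 93.6% and H3K27ac in both at 94.1%. At WT regions of H3K4me3 with H3K27ac the KO calls came to 95.1% for H3K4me3 and 86.4% for H3K27ac, at those of H3K4me1 with H3K4me3 to 79.9% for H3K4me1 and 70.2% for H3K4me3, and at those of H3K4me3 alone to 58.0% for H3K4me3. At WT regions of H3K4me1 with H3K27ac the KO calls came to 13.9% for H3K4me1 and 25.5% for H3K27ac, and at those of H3K27ac alone to 4.29% for H3K27ac. At WT regions of H3K4me1 alone the KO library had H3K4me1 at 8.54%. Among regions of 1 to 2 kb the KO shares of H3K4me1 were 82.9% with all 3 marks, 8.58% with H3K27ac and 12.9% alone. These regions were chosen from WT peaks, so the shares do not compare the genotypes. WT folds were also lower in the combinations without H3K4me3. The KO lists are shorter, with 42864 peaks of H3K4me1 in KO against 122917 in WT. H3K27ac had 64367 and 61228 in KO against 137489 and 196645 in WT. H3K4me3 differed less, with 19891 and 17878 against 20380 and 19153. The part of this choice, of WT fold and of list length in these shares was not tested.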

How the data were processed

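ChIP-seq peak lists of WT HCT116 were used for H3K4me1 (1 library), H3K4me3 and H3K27ac (2 each). Peaks were called with MACS2 2.1.1 on hg38, per the submitters' processing notes. Each deposited list comes from 1 library set against the WT input, per the peak names, so nothing was pooled. The H3K4me1 list is broad and the others narrow. The authors' fold enrichment per peak is a ratio to the local background estimate, and the authors' −log10 q-value has a lowest value of 1.00 in the H3K4me1 list and 1.31 in the H3K27ac lists. Neither aligner nor depth is given in the sources used here.

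Peaks were merged and labelled with Python 3.11.15, pandas 2.3.3 and NumPy 2.4.6, in code tested on simulated intervals. Overlap meant at least 1 bp. Gene positions came from RefSeq on GRCh38.p14, the same assembly as hg38. Starts came from its promoter sequences, with 21155 starts for 15100 of 19122 coding genes; either gene end served for the others in the share of regions at starts. The design had named starts only. Peaks of the KO mark lists and of the WT MLL4, MLL1 and p53 lists were overlaid on the finished regions, and the KO lists of MLL4, MLL1 and p53 were not used.

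No test was made, since all combinations share 5 libraries. Shares carry 95% Wilson intervals, which cover counting error only. Named were, per combination, the 3 regions of highest fold, the 3 widest and the 5 genes with most regions, every member of 4 colon lists, and departures in the other lists. Promoters shown as differing between replicates were chosen after their values were seen. Members and gene lists were chosen with earlier results of these data known. Some list members and 1 of the widest regions are not reported here.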

Additional observations from a re-analysis of the deposited data

How the results depend on the processing

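No paired analysis was possible because the combinations come from 1 genotype and no test was made. Shares of the gene lists with all 3 marks stayed within their counting intervals under the settings tried, but these are wide. The Wnt and crypt list lay below all genes in the main setting (56.2% against 63.9%) and above them from either library (68.8% against 65.6%), without replicate 1 of both marks (68.8% against 64.5%) and at either gene end (64.0% against 62.2%). The mesenchymal and endothelial list lay above all genes (70.0% against 63.9%) but below them by peaks within the window (5 of 10 genes, against 59.4%) and at either gene end (10 of 25, against 62.2%). Numbers of regions were the least stable. With a mark counted from either library, H3K4me3 with H3K27ac took 563 regions, H3K4me3 alone 346 and H3K27ac alone 98341. With 1 replicate left out of H3K4me3, of H3K27ac or of both, the lowest and highest numbers were 14262 and 16166 for all 3 marks, 324 and 575 for H3K4me3 with H3K27ac, 468 and 1370 for H3K4me1 with H3K4me3, 129 and 431 for H3K4me3 alone, 34630 and 49475 for H3K4me1 with H3K27ac, 36392 and 92339 for H3K27ac alone, and 51538 and 64079 for H3K4me1 alone. Leaving out replicate 1 of both marks gave 575 of H3K4me3 with H3K27ac, 282 of H3K4me3 alone and 92127 of H3K27ac alone, and leaving out replicate 2 of both gave 257 of H3K4me3 alone; these joint settings were chosen after seeing the data. With only peaks of −log10 q-value 5 or more, the numbers were 1840 for H3K4me3 with H3K27ac, 388 for H3K4me3 alone, 12198 for H3K4me1 with H3K27ac, 23170 for H3K27ac alone and 22045 for H3K4me1 alone.

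The share of regions at a start moved with the definition. For H3K4me1 with H3K27ac, H3K27ac alone and H3K4me1 alone it was 7.08%, 4.22% and 1.51% within 500 bp, and 9.77%, 7.38% and 3.70% within 2 kb. With either end of every coding gene it was 69.0% for all 3 marks, 13.3% for H3K4me3 alone, 12% for H3K4me1 with H3K27ac, 7.49% for H3K27ac alone and 3.0% for H3K4me1 alone. With listed starts only, added after seeing the data, it was 59.8% for all 3 marks, 67.0% for H3K4me3 with H3K27ac, 14.7% for H3K4me1 with H3K4me3, 4.57% for H3K4me1 with H3K27ac, 3.35% for H3K27ac alone and 1.33% for H3K4me1 alone. Of all genes, all 3 marks were at 59.4% by peaks within the 1 kb window, 54.8% with the stricter q-value, 65.6% from either library and 62.2% at either end of every gene.

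Overlap with factors moved in both directions at equal width. In regions of 1 to 2 kb it was higher than over all widths for MLL4 in H3K27ac alone (13.1% against 9.53%) and H3K4me1 alone (3.41% against 2.40%), for p53 in H3K27ac alone (14.4% against 11.5%) and for MLL1 in H3K4me3 alone (46.9% against 25.9%). For all 3 marks MLL4 was at 22.2% in regions of 1 to 2 kb and 18.9% at the stricter q-value, MLL1 at 70.4% and 70.0%, and p53 at 33.7% and 50.9%. For H3K4me1 with H3K27ac the values were 9.65% and 3.86% for MLL4, 5.77% and 1.07% for MLL1, and 6.93% and 9.66% for p53. The cause was not tested. Merging joined marks that shared no base in 2670 of 51291 regions with more than 1 mark (5.21%). The 1 library of H3K4me1, the unknown depth and the weak MLL4 list limit what the absence of a peak shows.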
